A study of Mus musculus with 6 samples.

Results

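The proteasome is the large protease that breaks down proteins tagged with ubiquitin in the cytosol and the nucleus. Its barrel-shaped core has outer rings of alpha subunits, which guard the entry pore, and inner rings of beta subunits, a few of which carry the cutting sites. A cap on the end of the barrel binds ubiquitin chains, removes them and unfolds the substrate with a ring of ATPases, while dedicated chaperones assemble core and cap. Neurons do not dilute damaged proteins by dividing and rely on this route to clear them.

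The genes of the constitutive machinery were followed in the auditory nerve of old and young mice. The members were all genes of the deposited table with a symbol from Psma to Psmg followed by a digit. Psmb8, Psmb9, Psmb10, Psme1 and Psme2, which encode the immunoproteasome subunits and their activator, were left out, and a mean normalised count of at least 10 over the 6 libraries was required. This gave 45 of 17607 genes, with 0 lost to the minimum. By function, 16 encode the core, 20 the cap with its alternative activators and an inhibitor, and 7 assembly chaperones, which makes 43. The other 2 were set apart. Psmc3ip encodes a recombination factor that only interacts with a proteasome subunit, and Psme2b is a near copy of Psme2.

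There were 3 old mice aged 2.5 years and 3 young mice aged 2 months, all of the inbred strain CBA/CaJ, and the labels name no treatment or allele. Nerves were microdissected from the cochlea, with both cochleas of a mouse in 1 library, so replicates are separate animals. Libraries held 34587979 to 40841478 reads, recovered from the deposited values. All 15 neuronal and 10 myelinating Schwann cell markers were present, and none was at 0 in every library. The summed level of the neuronal markers was 333114 to 467529 in old nerves and 512364 to 516444 in young nerves, and 5 of the 15 fell and 0 rose. Of 10 osteoblast and osteocyte markers 7 fell. Summed macrophage markers stood at 17281 to 24927 in old nerves and at 6678 to 8768 in young nerves, with 13 of 14 higher. In bulk tissue fewer cells of a type and less RNA per cell cannot be told apart. The part of these shifts in the results on the proteasome was not tested.

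Transcripts of the core were modestly more abundant in old nerves, while cap genes rose and fell in shares closer to those of all tested genes. Of the 16 core genes 12 rose and 0 fell, with a median log2 fold change of 0.31. Of the 20 cap genes 5 rose and 3 fell (25% and 15%, against 15.9% and 18.7% of all tested genes), with a median of 0.10. Of the 7 assembly genes 3 rose and 0 fell (median 0.19). Together 20 of 43 rose, or 46.5%, where 15.9% of all 15882 tested genes did, and 3 fell, or 6.98%, against 18.7% of all tested genes. The rises were small, from 13.1% in Psmd13 to 39.2% in Psmg4 with Psmb11 apart. Log2 fold changes compare old with young nerves, positive where old is higher, as differences of log2(normalised count + 1). They come with their SE and with p-values from limma that were adjusted over all tested genes, and a gene passed with an adjusted p under 0.05. The median over all tested genes was close to 0 (-0.00080). All 43 entered the test.

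Genes with short transcripts had higher values in old nerves in general, and most members are short. Across 14896 tested genes the log2 fold change fell with transcript length (Spearman correlation -0.382 across genes, which are not independent replicates). When genes were cut by length into 10 bins of about equal size, the bin of 216 to 1339 nt had a median of 0.31 on that scale, and 37.0% of it rose. That shortest bin held 11 of the 16 core genes, 4 assembly genes and 1 cap gene. The longest bin had a median of -0.28 and held no member. With smooth trends in transcript length and GC content subtracted from every library, 2 members rose and 6 fell, against 10.2% and 12.7% of all genes in that fit. The median of the 43 was then -0.13, set beside -0.04 over all genes. Only 5 genes passed in the same direction with and without the trends. Psmb11 and Psmd9 rose, and Psmd3, Psmd11 and Psme3 fell. Both trends were removed together, and the share of each in these changes was not separated. Psma2 (2911 nt, 39.4% GC) went from 0.28 to 0.02, while its bin of 2718 to 3165 nt had a median of 0.02. The cause of the length trend was not tested.

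**Figure D1:**
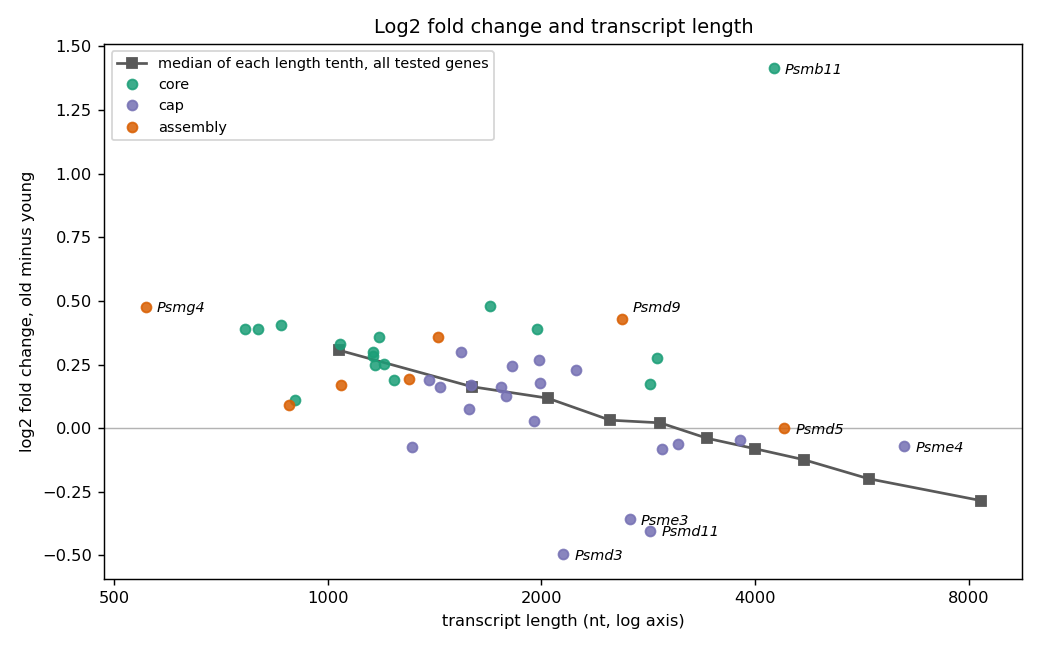
Log2 fold change (old minus young) of the 43 proteasome genes against transcript length on a log axis, with the median of all tested genes in each of 10 length bins as grey squares. Most core genes lie around the grey line near its left end, where the median is 0.31. Psma2, Psma3, Psma8 and Psmb1 lie further right and above the line, and Psmb11 lies far above it. Psmd3, Psmd11 and Psme3 lie below it.

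Taken as the median deviation from the young mean over the 43 genes, old 1, 2 and 3 stood at 0.19, 0.19 and 0.22 on the log2 scale and young 1, 2 and 3 at 0.03, -0.02 and -0.01. With the trends removed the same medians were -0.21, -0.14 and -0.0039 in old 1, 2 and 3 and -0.0049, 0.0074 and -0.02 in young 1, 2 and 3, so that old 3 was level with the young mice. The 43 genes took 0.366% to 0.368% of the reads of old libraries and 0.313% to 0.331% of those of young libraries. All 3 old values lay above all 3 young values in 29 of the 43 genes and below them in 3, where 25.5% and 26.3% of all tested genes did so. The number of rises fell to 11, 6 and 9 with young 1, 2 or 3 left out. The calls over all genes fell as well, to 3565, 2589 and 3077, against 5493 with every library, while the median log2 fold change of the 43 genes was 0.23, 0.17 and 0.21. Old 2 and young 1 stood apart from their groups in neutrophil markers, and in erythroid markers only old 2 did. The erythroid gene Alas2 had 515, 139 and 794 counts in old 1, 2 and 3 and 149.5, 173 and 107 in young 1, 2 and 3. The neutrophil gene S100a8 had 559, 59.8 and 445 counts in old 1, 2 and 3 and 507, 106 and 38.5 in young 1, 2 and 3. With old 2 and young 1 both dropped, 3 members rose and 0 fell, 1776 of all genes passed, and the median of the 43 was 0.24.

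**Figure D2:**
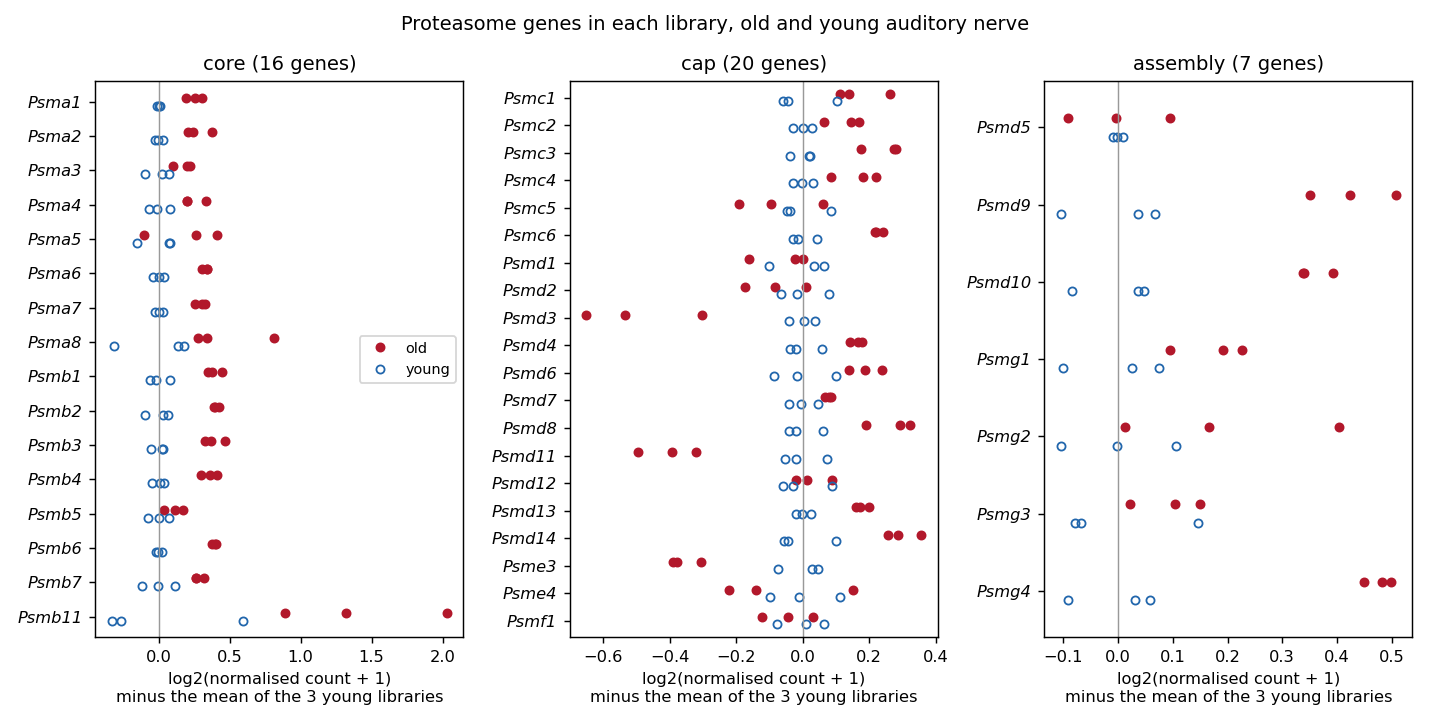
Values of the 43 genes in each library as log2(normalised count + 1) minus the mean of the young libraries, with old libraries as filled red circles above and young libraries as open blue circles below in each row. Core genes sit to the right in old libraries, and in the cap Psmd3, Psmd11 and Psme3 sit to the left.

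The start regions of 4 genes are shown because the genes moved in different ways. Psma6 and Psmb6 rose with the core, Psmd9 rose with and without the trends, and Psme3 fell. Each sequence runs from 250 bases before to 50 after the RefSeq start (build GRCm38.p6, forward strand of the chromosome). Capitals mark the core of the antioxidant response element, TGACNNNGC, and the CCAAT box, CCAAT, on either strand. The first is bound by the factor NRF1 (gene Nfe2l1), which raises proteasome genes when proteasome activity is short. The second is bound by the factor NF-Y.
Psma6, chr12:55383972-55384271: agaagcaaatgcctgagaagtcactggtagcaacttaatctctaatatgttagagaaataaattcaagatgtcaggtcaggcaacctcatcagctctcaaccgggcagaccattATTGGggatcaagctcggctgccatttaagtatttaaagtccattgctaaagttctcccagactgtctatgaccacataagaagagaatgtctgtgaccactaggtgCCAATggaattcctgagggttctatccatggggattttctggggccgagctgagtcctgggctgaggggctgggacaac
Psmb6, chr11:70525107-70525406: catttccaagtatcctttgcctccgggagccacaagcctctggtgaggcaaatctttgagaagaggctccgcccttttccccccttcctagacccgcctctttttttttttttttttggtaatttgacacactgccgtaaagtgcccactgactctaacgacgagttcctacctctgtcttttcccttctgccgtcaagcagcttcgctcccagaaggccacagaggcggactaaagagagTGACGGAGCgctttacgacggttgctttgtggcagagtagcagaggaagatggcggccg
Psmd9, chr5:123227940-123228239: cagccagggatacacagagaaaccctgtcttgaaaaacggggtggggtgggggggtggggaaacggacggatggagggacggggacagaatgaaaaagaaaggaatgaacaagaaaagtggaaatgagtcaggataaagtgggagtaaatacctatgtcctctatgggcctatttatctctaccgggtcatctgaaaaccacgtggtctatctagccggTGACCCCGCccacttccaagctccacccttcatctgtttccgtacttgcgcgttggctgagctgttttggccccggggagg
Psme3, chr11:101315963-101316262: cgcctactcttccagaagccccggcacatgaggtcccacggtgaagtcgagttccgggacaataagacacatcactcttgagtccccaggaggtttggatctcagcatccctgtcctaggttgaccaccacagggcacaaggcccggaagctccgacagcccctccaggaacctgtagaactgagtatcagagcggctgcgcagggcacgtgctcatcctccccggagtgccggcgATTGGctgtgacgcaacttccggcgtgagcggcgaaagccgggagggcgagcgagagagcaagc

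In Psmb6 the response element core begins 9 bases before the start and in Psmd9 31 bases before it. Psma6 holds CCAAT boxes in both orientations, and Psme3 holds 1 in reverse 14 bases before the start. Windows were matched by symbol for 35 of the 43 genes. The response element core stood in 17.1% of these genes, where 16.5% of all genes of the table with a window held it. CCAAT boxes stood in 37.1% of them, against 42.0% of all. Among core genes they stood in 7 of 12. Of the 6 members with the response element core, Psmb6, Psmc6 and Psmd9 rose, and Psmb5, Psmd12 and Psme4 did not pass. A match of letters is a description and says nothing of binding.

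In the beta ring 7 of 8 genes rose, or 87.5%, where 15.9% of all tested genes did, and the median log2 fold change was 0.39. With the trends removed 1 of the 8 rose, 0 fell and the median was -0.03. Psmb6, which encodes the subunit with the caspase-like cutting site, had 4257, 4238 and 4178 normalised counts in old nerves, against 3272, 3212 and 3182 in young nerves. The groups were far apart and each was tight. Its log2 fold change was 0.39 ± 0.05 (adjusted p = 0.00544), the smallest p among the members, and it was 0.03 with the length and GC trends removed (adjusted p = 0.766).

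Psmb2, a structural subunit of the beta ring, stood at 2690.5, 2744 and 2669 in old nerves and at 2079.8, 1912 and 2131 in young nerves. Psmb1, another structural beta subunit, had 5413, 5061 and 5164 counts in old nerves and 4197, 3808 and 3937 in young nerves. Psmb4, likewise structural, had 5997, 5538 and 5789.7 counts in old nerves and 4618, 4375 and 4532 in young nerves. In each of these genes the lowest old library was above the highest young library. Their log2 fold changes were 0.41 ± 0.07, 0.39 ± 0.07 and 0.36 ± 0.06 (adjusted p = 0.00697, 0.00727 and 0.00773). With the trends removed the log2 fold changes of Psmb2, Psmb1 and Psmb4 were -0.07, 0.17 and -0.01, and none passed. Psmb3, which completes the structural set, rose by 0.39 ± 0.09.

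The subunits with the other cutting sites behaved less alike. Psmb7, with the trypsin-like site, had 4646, 4828 and 4643 counts in old nerves and 4191, 3568 and 3852 in young nerves. It rose by a log2 fold change of 0.28 ± 0.07 (adjusted p = 0.0248) and did not pass without old 1, old 2, young 2 or young 3. Psmb5, with the chymotrypsin-like site that proteasome inhibitor drugs target, had 955, 1009 and 1047 counts in old nerves and 929.9, 881 and 979 in young nerves. These groups overlapped, and Psmb5 did not pass (0.11 ± 0.08, adjusted p = 0.313).

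In the alpha ring 5 of 8 genes rose, or 62.5%, where 15.9% of all tested genes did, with a median of 0.26. With the trends removed 0 rose, 1 fell and the median was -0.14. Psma6 had 4349, 4239.7 and 4333 counts in old nerves and 3429.9, 3524 and 3334 in young nerves. Psma7 stood at 4221, 4079 and 4269 in old nerves and at 3341, 3475 and 3406 in young nerves. Neither gene showed overlap, and their log2 fold changes were 0.33 ± 0.06 and 0.30 ± 0.06 (adjusted p = 0.00773 and 0.00960). With the trends removed they were -0.18 and -0.10 and did not pass. Psma1, Psma2 and Psma4 rose by 0.25, 0.28 and 0.25. Psma1 and Psma2 did not pass without any 1 of the young libraries, as was true of Psmb3, and with 1 library left out Psma4 passed only without old 3. Psma1 was lower in old nerves once the trends were removed (-0.28, adjusted p = 0.0372), a call lost with trends from principal transcripts (adjusted p = 0.0615).

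Of the alpha subunits that did not pass, Psma3 was at 0.17 (adjusted p = 0.128). Psma5 had 151, 195 and 216 counts in old nerves and 170.2, 145 and 172 in young nerves, and the groups overlapped (0.19 ± 0.18, adjusted p = 0.427). Psma8, a testis form that replaces an alpha subunit in germ cells, had means of 27.2 ± 6.03 in old and 19.2 ± 3.61 in young nerves (SD, n = 3 each; adjusted p = 0.269).

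Psmb11 departed from the rest of the core. It encodes the beta subunit of the thymoproteasome, a form made in the cortical epithelium of the thymus. Its counts were 90.9, 40.8 and 55.1 in old nerves and 16.9, 17.7 and 33.0 in young nerves, so the groups did not overlap. The log2 fold change was 1.41 ± 0.40 (adjusted p = 0.0320), and it was 1.52 with the trends removed (adjusted p = 0.0393). The fewest reads in a library were 18. The call was lost without old 1, old 3, young 1 or young 2, with adjusted p up to 0.103. Psmb11 lies on chromosome 14 at chr14:54625310-54629556 (mm10, forward strand), on the same chromosome as Psmb5 at chr14:54614120-54617995 on the reverse strand.

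**Figure D3:**
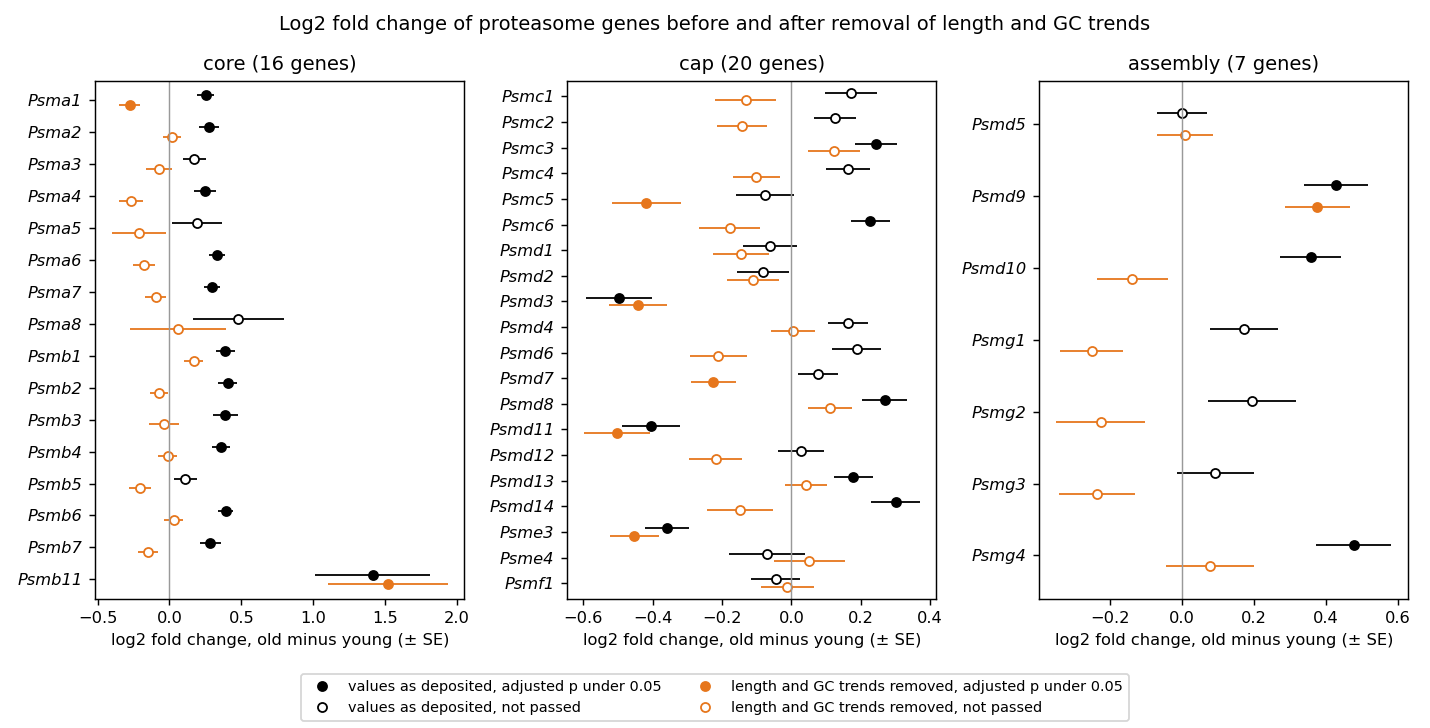
Log2 fold change (old minus young, ± SE) of each gene from the values as deposited in black and with length and GC trends removed in orange. Filled circles passed an adjusted p under 0.05. Most black points lie right of 0 and their orange partners left of it, while Psmb11, Psmd9, Psmd3, Psmd11 and Psme3 stay filled on the same side.

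The usual core subunits enter the particle in equal number, yet their transcript levels were far apart. Per kilobase of the longest coding transcript, the level ran to 5293 in old and 4038 in young nerves for Psmb6. The median of all 16 core genes was 2066 in old and 1636 in young nerves. These 16 include the testis form Psma8 and the thymus form Psmb11, at 16.1 and 14.7 in old nerves. Psma5 reached only 151 per kilobase in old and 131 in young nerves. Psma4, Psma5, Psmb3 and Psmb5 each have at least 1 annotated pseudogene that matches their transcript at 95% identity or more over at least 50% of its length. No other core gene has one. The median level of these 4 was 966 per kilobase in old nerves, against 3163 for the other 12, and 828 in young nerves, against 2523. Low levels also occurred among the 12. In old nerves Psma2 and Psma3 stood at 981 and 413, below Psmb5 at 1116 and Psma4 at 1486. Their transcripts are long (2911 and 2846 nt), and both the level and the cover of a copy are divided by that length. The sources used here do not say whether reads that match several places were kept, so the levels and changes of these 4 genes are uncertain. Of the 12 without such a copy 10 rose (83.3%), and of the 4 with one 2 rose (50%), where 15.9% of all tested genes did.

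**Figure D4:**
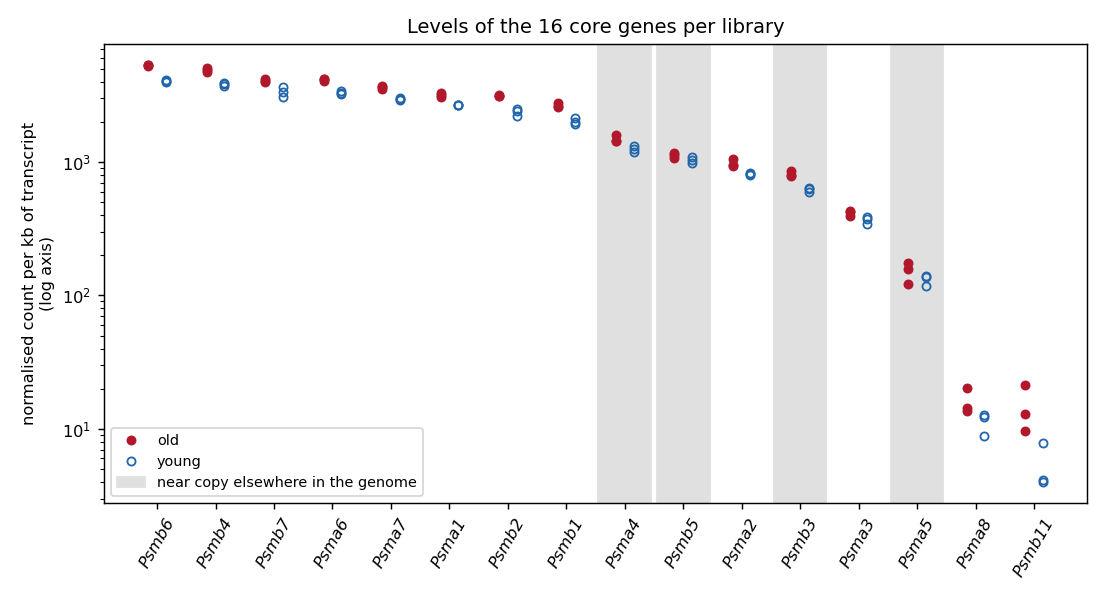
Normalised count per kilobase of transcript of the 16 core genes on a log axis, with old libraries in filled red and young libraries in open blue circles. Grey bands mark the 4 genes with a near copy elsewhere in the genome, among them Psma5 at 151 per kilobase in old nerves. Psma8 and Psmb11 have the lowest levels.

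Among the ATPases of the cap's base, which thread the substrate into the core, 2 of 6 rose (33.3%, against 15.9% of all tested genes). Psmc6 had 4734, 4746 and 4815 counts in old nerves, against 4197, 3993 and 4028 in young nerves, with no overlap. Its log2 fold change was 0.23 ± 0.06 (adjusted p = 0.0210), and that of Psmc3 was 0.24 ± 0.06 (adjusted p = 0.0223). Psmc1, Psmc2 and Psmc4 were at 0.17, 0.13 and 0.16 and did not pass. Psmc5 was at -0.07 (adjusted p = 0.513), and with the trends removed it was lower in old nerves (-0.42, adjusted p = 0.0267). The large scaffold subunits of the base, Psmd1 and Psmd2, were at -0.06 and -0.08, and the ubiquitin receptor Psmd4 at 0.16, and none passed. Psmc1 and Psmd2 each have 1 pseudogene as near as those of the core genes above, so their values are uncertain too.

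The lid, which carries the enzyme that takes ubiquitin off the substrate, held rises and falls. Psmd14, that deubiquitinase, had 3280.4, 3352 and 3516 counts in old nerves and 2944, 2639 and 2666 in young nerves. Psmd8, a structural lid subunit, stood at 4034, 3958 and 3681 in old nerves and at 3182, 3136 and 3371 in young nerves. The groups did not overlap in these genes or in Psmd13, and all 3 rose, by 0.30 ± 0.07, 0.27 ± 0.07 and 0.18 ± 0.06 (adjusted p = 0.0168, 0.0204 and 0.0454). None passed with the trends removed, where Psmd14 was at -0.15. None of the 5 rises in the cap passed without young 2 or without young 3, and with upper-quartile scaling 10 cap genes rose.

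Psmd3, another lid subunit, had the most negative fold change of the members before the trends were removed. It had 3516, 3808 and 4472 counts in old nerves, against 5358, 5663 and 5539 in young nerves. Its old libraries were spread, yet each was well below the lowest young library. The mean difference was -28.8% of the young mean (log2 fold change -0.50 ± 0.09, adjusted p = 0.00960), and the value was -0.44 with the trends removed (adjusted p = 0.0159), where Psmd11 and Psme3 were lower still. Psmd3 passed with each single library left out and missed the threshold without both young 1 and old 2 (adjusted p = 0.0652).

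Psmd11, also of the lid, had 701, 752 and 792 counts in old nerves and 952, 1041 and 976 in young nerves, with no overlap. It fell by 0.40 on the log2 scale (SE 0.08, adjusted p = 0.0122; 0.0561 without young 2), and with the trends removed it was at -0.50. Its transcript has 2 near copies, the noncoding gene A730017L22Rik and Gm14048, the closer of them at 97.9% identity. A730017L22Rik had 105, 146 and 177 counts in old nerves and 201, 224 and 220.2 in young nerves without passing the test (adjusted p = 0.0543). Reads of these genes may have been split, so the level of Psmd11 is uncertain. The other lid genes Psmd6, Psmd7 and Psmd12 were at 0.19, 0.08 and 0.03 and did not pass. Psmd7 was lower in old nerves once the trends were removed (-0.22, adjusted p = 0.0459), and with trends from principal transcripts it did not pass (adjusted p = 0.0701). Psmd12 had 3577, 3657 and 3854 counts in old nerves and 3855, 3476 and 3552 in young nerves.

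Among alternative caps, Psme3 fell. It encodes the nuclear activator PA28 gamma, which opens the core without using ATP. Counts were 2578, 2600 and 2732 in old nerves, against 3490.1, 3444 and 3212 in young nerves, and the groups were clearly apart. The log2 fold change was -0.36 ± 0.06 (adjusted p = 0.00807), and -0.45 with the trends removed (adjusted p = 0.0114). Psme3 also passed with each single library left out, but not without both young 1 and old 2 (adjusted p = 0.0749). Psme4, which encodes the large activator PA200, was at -0.07. Psmf1, an inhibitor of the core also known as PI31, had 2563, 2708 and 2852 counts in old nerves and 2649, 2921 and 2811 in young nerves (adjusted p = 0.643).

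The assembly chaperones had lower levels. Their median per kilobase was 498 in old and 471 in young nerves, set beside 2284 and 2258 for the cap. Psmd9, which escorts ATPases of the base during assembly, had 870.0, 821 and 780.4 counts in old nerves and 641, 569 and 628 in young nerves. It rose by a log2 fold change of 0.43 ± 0.09 (adjusted p = 0.0127; 0.0542 without young 2) and remained higher with the trends removed (0.38, adjusted p = 0.0271). A predicted gene on the other strand, Gm26745, overlaps 25.5% of its exon bases. The sources used here do not say whether the counting used strand, so reads of that gene may be included.

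Psmd10 (gankyrin), another chaperone of the base, had 690.3, 715 and 689.5 counts in old nerves and 563, 514 and 559 in young nerves. Psmg4, a chaperone of the alpha ring, stood at 375, 371 and 363 in old nerves and at 249, 271 and 276 in young nerves. Both rose without overlap, by 0.36 ± 0.08 and 0.48 ± 0.10 (adjusted p = 0.0180 and 0.0143), and were at -0.14 and 0.08 with the trends removed. Psmd10 did not pass without old 2, young 2 or young 3, nor Psmg4 without young 2 (adjusted p = 0.0516).

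The other chaperones did not pass. Psmg1 had 565, 579 and 528 counts in old nerves and 503, 461 and 521 in young nerves. Its partner Psmg2 was at 625, 819.8 and 695 in old nerves and at 619, 576 and 666 in young nerves. Their log2 fold changes were 0.17 and 0.19. Psmg3, which works with Psmg4, had 443, 418 and 457 counts in old nerves and 390.2, 393 and 456 in young nerves. Psmd5, which acts on the base, stood at 2064, 1942 and 2209.7 in old nerves and 2084, 2068 and 2058 in young nerves, a log2 fold change of -0.00063.

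The immunoproteasome genes, which are induced by interferon and abundant in leukocytes, were set beside the constitutive ones. Psmb8 had 879.6, 749 and 522 counts in old nerves, against 269.8, 232 and 236 in young nerves. Its log2 fold change was 1.51 ± 0.19, and those of Psmb9 and Psme1 were 1.27 ± 0.20 and 0.93 ± 0.15 (adjusted p = 0.00499, 0.00671 and 0.00658). All 3 passed with the trends removed as well (1.37, 1.04 and 0.62). Psmb10 and Psme2 were at 0.44 and 0.33 and did not pass, nor did Psme2b at 0.47 (adjusted p = 0.0597) or Psmc3ip at 0.22.

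Set against the subunit it replaces, per kilobase, Psmb8 reached 0.509, 0.410 and 0.275 of Psmb5 in old 1, 2 and 3 and 0.160, 0.145 and 0.133 in young 1, 2 and 3. Every old mouse was above every young mouse. The mean ratio was 0.398 ± 0.117 in old and 0.146 ± 0.0137 in young nerves (SD, n = 3 each; two-sided exact permutation test, p = 0.1, the smallest this design allows). Psmb9 was scarce, at 0.0182 ± 0.00275 of Psmb6 in old and 0.00975 ± 0.00109 in young nerves. The ratio of Psmb10 to Psmb7 overlapped between the groups, at 0.151 to 0.228 in old and 0.161 to 0.184 in young nerves. The ratio of Psmb8 carries the uncertainty of Psmb5, and macrophage markers rose in the same libraries, as given above.

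**Figure D5:**
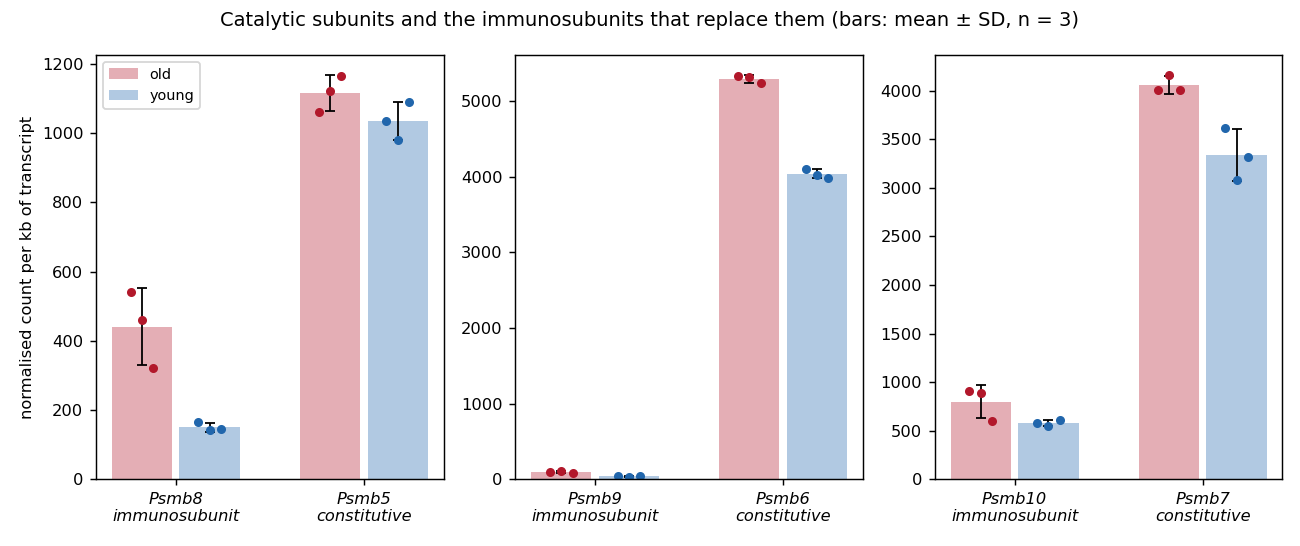
Normalised count per kilobase of the immunosubunits Psmb8, Psmb9 and Psmb10 and of the constitutive catalytic subunits Psmb5, Psmb6 and Psmb7, with old left of young, bars as means ± SD (n = 3) and points as libraries. Psmb8 is at 0.398 of Psmb5 in old and 0.146 in young nerves, while Psmb9 stays far below Psmb6.

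Genes that serve the proteasome under other names were described for comparison. Of 14 parts and partners 3 rose and 3 fell, or 21.4% each way, near the 15.9% and 18.7% of all tested genes. Pomp, the maturation factor of the core, had 3361, 3317 and 3153 counts in old nerves and 2592, 2352 and 2485 in young nerves. It rose by 0.40 ± 0.07 (adjusted p = 0.00688), and by 0.45 with the trends removed (adjusted p = 0.01003), but with trends from principal transcripts it was at 0.13 and did not pass (adjusted p = 0.142). Sem1, a small lid subunit, rose by 0.43 ± 0.08, with -0.13 once the trends were removed. Akirin2, which brings proteasomes into the nucleus, fell by 0.32 on the log2 scale and passed in 1 of 6 fits with a library left out. Its value without the trends was -0.71 (adjusted p = 0.0103). Dcaf1, a substrate adaptor of a ubiquitin ligase, fell by 0.47.

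In a list of 15 genes, most of which control proteasome genes or heat shock genes, 3 rose and 5 fell (20.0% and 33.3%, against 15.9% and 18.7% of all tested genes). The 15 also include Aspm, a mitotic spindle gene that did not pass (adjusted p = 0.547). Nfe2l1 itself had 13340, 15445 and 15702 counts in old nerves, against 21647, 21694 and 21336 in young nerves, and no old library came near the young ones. It fell by 0.54 on the log2 scale (SE 0.09, adjusted p = 0.00657), and its value was -0.31 with the trends removed (adjusted p = 0.0233). Of its small Maf partners Mafg fell (-0.73 ± 0.08), while Maff (1.27 ± 0.15) and Mafk (0.44 ± 0.12) rose, each also with the trends removed. Hsf1, the heat shock factor, fell by 0.39.

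Among genes that act before the proteasome, 2 of 13 shuttle and unfoldase genes rose and 6 fell (15.4% and 46.2%, against 15.9% and 18.7% of all tested genes), with 4 falls once the trends were removed. The ubiquilins, which carry tagged proteins to the cap, were among the falls, with -0.66 ± 0.08 for Ubqln2, -0.68 ± 0.11 for Ubqln4 and -0.39 ± 0.08 for Ubqln1, all of which also passed with the trends removed. Ubxn1 rose by 0.31. Of 23 genes of ubiquitin and its activation 5 rose and 7 fell (21.7% and 30.4%, beside the same shares of all genes). Rps27a, which encodes ubiquitin fused to a ribosomal protein and has many processed copies, rose by 0.71 (0.19 and not past the threshold with the trends removed). Uba6, a ubiquitin-activating enzyme, fell by 0.43, and Ube2r2 by 0.24.

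Counts for other multi-subunit complexes of the cell were taken the same way. Of the 8 genes of the CCT chaperonin, which folds tubulin and actin, 4 rose and 0 fell (where 15.9% of all tested genes rose; median log2 fold change 0.16). They were Tcp1 (0.26), Cct2 (0.25), Cct4 (0.19) and Cct5 (0.20), of which Cct2, Cct4 and Cct5 each passed in 1 of 6 fits with a library left out. Of the 9 genes of the COP9 signalosome, a complex related to the lid, Cops4 (0.24) and Cops2 (0.23) rose and 0 fell (22.2% higher; median 0.18). With the trends removed 0 genes of the chaperonin passed, and 1 of the signalosome did, as a fall.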

How the data were processed

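RNA-seq libraries were made from total RNA of microdissected auditory nerves, 3 old and 3 young, with the TruSeq RNA kit, per the labels' protocols. TopHat2, Partek and DESeq2 with build mm10 are named in the submitters' processing notes; no source used here gives versions, annotation, strand or the treatment of reads with several matches. The authors' deposited signal values are normalised counts. Dividing each library's values by the worth of 1 read gave whole reads within 0.1 for 99.931% to 99.971% of them. The authors' deposited p-value and FDR and their deposited signed fold change, a score in which falls are negative inverses, served only as an alternative.

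Values were tested as log2(value + 1) with limma 3.58.1 (R 4.3.3), trended variances and Benjamini-Hochberg adjustment over 15882 genes that passed edgeR's filter (minimum count 10, minimum total 15). The threshold was 0.05. Length and GC trends were fitted in each library with mgcv 1.9.3 on the longest coding transcript of GENCODE and subtracted, which 93.8% of tested genes allowed. Alternatives were edgeR 4.0.16 and DESeq2 1.42.0 on the recovered reads, other scalings, filters and pseudocounts, a block for the replicate number, and libraries left out. The limma fit and the trend removal were tested on simulated data. Counting error is small at this depth for most members, but not for Psmb11 and Psma8, with as few as 18 and 16 reads in a library. The 3 mice per group limit the precision.

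Members and lists were chosen with earlier results of these data known. Values in every library are given, in each of core, cap and assembly, for up to 6 genes with the smallest p and the 2 with the largest, and for Psmb5, Psmb6 and Psmb7. Psmb11 was added after its values were seen. In the other lists up to 4 genes with the smallest p were named. A gene that this rule takes is not reported here. Coordinates are those of the deposited table with 1 base taken from its stop, which then equals the RefSeq end for 32 of the 45 genes. Identity between catalytic proteins was not analysed here.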

Additional observations from a re-analysis of the deposited data

How the results depend on the processing

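Calls of the 43 proteasome genes, and the directions of those that passed, held under edgeR, TMM scaling and pseudocounts of 0.5 and 10. Psmd5, which did not pass, was at -0.00063 with limma and at 0.0037 with edgeR. Upper-quartile scaling shifted the median of all genes by 0.08, raised the median of the proteasome genes to 0.27 and added 6 calls, and 10 cap genes rose. Of all tested genes 5493 passed. This count was 2589 to 6117 with 1 library left out, 1776 without young 1 and old 2, and 1866 at an adjusted p under 0.01. Members higher in old nerves numbered 6 to 18 with 1 library left out (core 6 to 11, cap 0 to 4) and 3 without young 1 and old 2 (core 3, cap 0). At an adjusted p under 0.01 they numbered 6 (core 6, cap 0). Members lower numbered 2 to 3 with 1 library left out and 0 without young 1 and old 2. The members' median was 0.17 to 0.23 with 1 library left out and 0.24 without young 1 and old 2.

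With length and GC trends removed 3408 genes passed, 2 members rose (core 1, cap 0) and 6 fell (cap 5), and the median was -0.13. With principal transcripts in place of the longest, chosen after seeing the data, 3505 genes passed, 2 members rose (core 1, cap 0) and 4 fell (cap 4), without Psma1 and Psmd7, and the median was -0.091. With edgeR and the trends as offsets, also chosen after seeing the data, 3307 passed, 2 rose (core 1, cap 0), 6 fell (cap 5) and the median was -0.13.

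With the trends removed 23 of the 43 genes turned from positive to negative, of which 11 passed the threshold neither with nor without the trends. For the other 12 and for genes of other lists, the log2 fold changes, given for the trends removed, principal transcripts and edgeR offsets in turn, were -0.28, -0.22 and -0.27 for Psma1, -0.27, -0.21 and -0.27 for Psma4, -0.18, -0.13 and -0.18 for Psma6, -0.097, -0.10 and -0.096 for Psma7. Those 3 values were -0.070, -0.022 and -0.070 for Psmb2, -0.15, -0.098 and -0.15 for Psmb7, -0.18, -0.15 and -0.17 for Psmc6, -0.15, -0.10 and -0.14 for Psmd14. Those 3 values were -0.14, -0.087 and -0.13 for Psmd10, -0.13, -0.098 and -0.13 for Sem1, -0.0026, -0.097 and -0.00097 for Cops2, -0.052, -0.013 and -0.051 for Cops4. Psmd7 had -0.22, -0.18 and -0.22. For the trends removed and for edgeR offsets, with principal transcripts leaving a positive value, they were -0.040 and -0.038 for Psmb3, -0.011 and -0.0097 for Psmb4, -0.013 and -0.013 for Cct2, -0.025 and -0.025 for Cct4, -0.030 and -0.031 for Cct5. The cause was not tested.

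Old and young libraries share replicate numbers, and the deviations of same-numbered libraries correlated at -0.29, -0.41 and -0.05. These values cannot decide whether same-numbered libraries were handled together, because differences between mice of a group, such as in neutrophil markers, also enter them. A replicate block left 2711 genes, with 5 members higher (core 5, cap 0) and 3 lower (cap 3). A block with the trends removed left 828 genes, 0 members higher (core 0, cap 0) and 0 lower (cap 0), with a median of -0.13, and each gene's value was as without the block.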
